A study of Drosophila melanogaster with 24 samples.

Results

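The gustatory receptor genes of the fly are the 60 protein-coding genes of the dm6 gene models whose symbol is Gr followed by a number, out of 13945 protein-coding genes on the major chromosome arms. The rule used symbols only and no measured value. Of these genes, 17 lie on 2L, 13 on 2R, 11 on 3L, 13 on 3R and 6 on the X chromosome. Their bodies are short, with a median of 1397 bp against 2166 bp for all protein-coding genes, and a range of 1143 to 7422 bp. Of the 60 genes, 32 sit in 7 groups of 3 or more that share a cytological number (Gr22, Gr36, Gr58, Gr59, Gr64, Gr93 and Gr98). Gr64b and Gr64c are annotated over one identical span, and Gr64d and Gr64e over nearly the same one, so neither pair gives independent values.

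Chromatin immunoprecipitation followed by sequencing was carried out on heads of mated male Drosophila melanogaster with antibodies to H3K27me3 and H3R17me2. The 4 conditions were LKRSDHMB01942 mutant flies aged 40 days, w1118 flies aged 40 days, LKRSDHMB01942 mutant flies aged 3 days and w1118 flies aged 3 days. Each condition had 2 libraries per mark, which gives 16 peak lists, and the 8 input samples were not analysed here. The mutant allele is 1 insertion line that carries a GFP marker, and it was set against the w1118 background strain, so that the comparison rests on a single allele.

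Gustatory receptors are membrane proteins that act as ligand-gated channels in taste hairs, pharyngeal sense organs, some olfactory neurons and a few internal neurons. Each gustatory neuron uses a selection of them, and most nuclei of a head belong to cells in which a given Gr gene is silent. H3K27me3 is deposited by the Polycomb repressive complex that contains Enhancer of zeste and covers developmentally silenced genes in broad domains. H3R17me2 is an arginine methylation made by enzymes of the CARM1 family (Art4 in the fly) and is known mainly from active genes.

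The value used throughout is the covered share, the percentage of a gene body that lies under listed peaks of a library. It measures whether the peak caller listed a region and not how strongly the region was enriched, and the sequencing depth behind the lists is unknown. The H3K27me3 lists held 3575 to 6295 peaks, of which 623 to 1967 had a q-value under 0.05. The H3R17me2 lists held 10627 to 17105 peaks, of which 3 to 130 had such a q-value, so the H3R17me2 peaks are weakly supported one by one. The head label was checked against marker genes. The posterior Hox genes Ubx, abd-A and Abd-B, which heads do not use, were at least 99.8% covered by H3K27me3 in all 8 libraries, and the neuronal gene nSyb, the rhodopsin gene ninaE, the photoreceptor gene chp and the glial transporter gene Eaat1 had no H3K27me3 peak in any. The photoreceptor arrestin gene Arr2 and the testis genes dj and nht were completely covered in all 8, and the glial gene repo was 70.1% to 94.7% covered. The neuronal gene brp was 7.8% to 32.4% covered, the glial gene nrv2 6.06% to 43.5% and the photoreceptor gene trp 0% to 98.6%. The testis genes bam, can and sa ran from 0% to 98.0%, 94.5% and 100%. No H3K27me3 peak in any library was found at 8234 of all 13945 genes, so its absence says little about the head label. Because whole heads were used, fewer cells that carry a mark and less of the mark in each cell cannot be told apart.

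Gr genes were covered more widely than the average gene by H3K27me3 in every library and by H3R17me2 in all but 1. The mean H3K27me3 share of the 60 genes was 43.3% and 43.1% in the 40-day mutant libraries, 55.9% and 43.5% in 40-day w1118, 20.1% and 29.1% in the 3-day mutant and 28.6% and 25.2% in 3-day w1118. It exceeded the mean of all genes by 4.81 to 30.7 percentage points, in 8 of 8 libraries. The mean H3R17me2 share was 54.5% and 49.8% in the 40-day mutant, 18.8% and 36.2% in 40-day w1118, 41.7% and 38.4% in the 3-day mutant and 32.2% and 50.8% in 3-day w1118. It exceeded the mean of all genes in 7 of 8 libraries, with differences of -1.81 to 25.1 points. No test was run on these means, since Gr genes in a cluster share peaks.

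**Figure D1:**
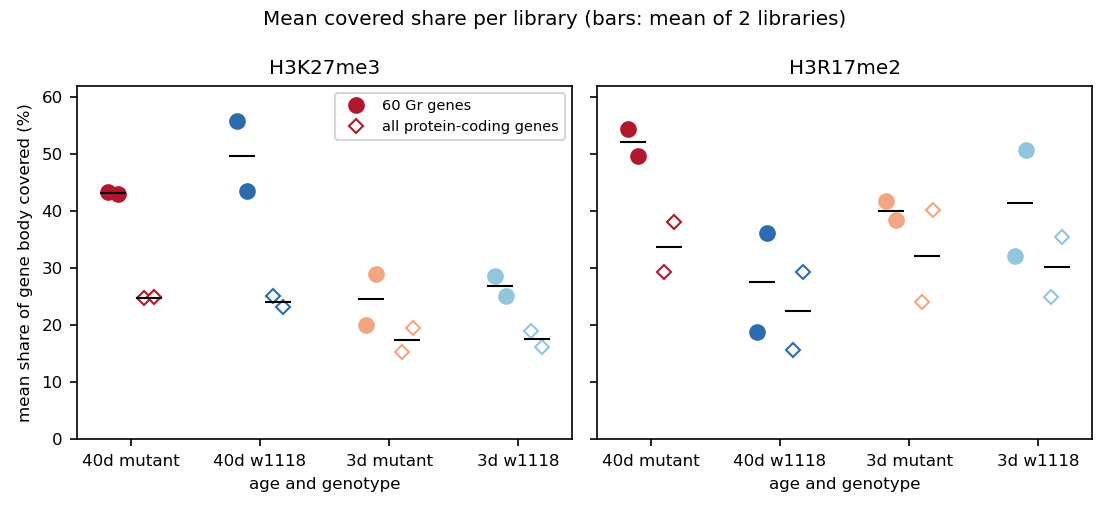
Mean covered share (percent of the gene body) of the 60 Gr genes and of all 13945 protein-coding genes in each library, by mark, age and genotype. In H3K27me3 the 4 libraries of 40-day flies lie between 43.1% and 55.9% for Gr genes and the 4 of 3-day flies between 20.1% and 29.1%, while the H3R17me2 values of the ages overlap.

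The other chemoreceptor families gave a closer point of comparison. Odorant receptor genes, which serve the olfactory neurons, had the higher H3K27me3 mean in 8 of 8 libraries, with Gr genes 7.72 to 23.9 points below the 59 Or genes. Gr genes were below the 60 ionotropic receptor genes in 7 of 8 libraries, with differences of -18.7 to 1.56 points. For H3R17me2, Gr genes were above the Or genes in 3 of 8 libraries and above the Ir genes in 5 of 8, so no order of the families held across the libraries of that mark.

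The H3K27me3 values split the family. Gr23a, Gr57a and Gr98a were completely covered in all 8 libraries, which is 5% of Gr genes against 6.04% of all genes. Another 6 genes, Gr21a, Gr59a, Gr59b, Gr59d, Gr89a and Gr98b, were at least 50% covered in every library. At least 50% in every library, complete coverage included, was found at 1592 of all 13945 genes. At the other end 18 genes (30%, against 59% of all genes) had no H3K27me3 peak in any library: the autosomal genes Gr32a, Gr39a, Gr39b, Gr43a, Gr47b, Gr58c, Gr66a, Gr93b, Gr93c, Gr93d, Gr94a and Gr97a, and the 6 X-linked genes. Between these ends, 19 genes (31.7%, against 9.2% of all genes) were at 0 in one library and fully covered in another. A share of 50% or more in at least 4 libraries was reached by 25 Gr genes (41.7%, against 22.5% of all genes).

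H3R17me2 did not split the family in this way. No Gr gene was completely covered in all 8 libraries, and none was free of peaks in all 8 except the 6 X-linked genes. Of all 13945 genes, only 13 were at least 50% covered by H3R17me2 in all 8 libraries. No H3R17me2 peak in any library was found at 2226 genes, of which 1856 are X-linked, so neither count sets Gr genes apart. As many as 37 Gr genes (61.7%, against 31.4% of all genes) were at 0 in one library and fully covered in another, and replicate libraries of a condition disagreed by 50 points or more at 16 to 23 of the 60 genes, against 6 to 9 for H3K27me3. The median difference between replicates was 18.2 to 33.4 points for H3R17me2 and 0 in each condition for H3K27me3. For H3K27me3, 18 Gr genes had no peak in any library and 3 were completely covered in every library. Their replicate difference is 0, so the lower H3K27me3 values do not by themselves show better agreement between replicates. These differences were not counted over all genes, so they do not set Gr genes apart. The all-gene mean of H3R17me2 was higher in replicate 2 than in replicate 1 in each of the 4 conditions, by 8.75 to 16.3 points.

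**Figure D2:**
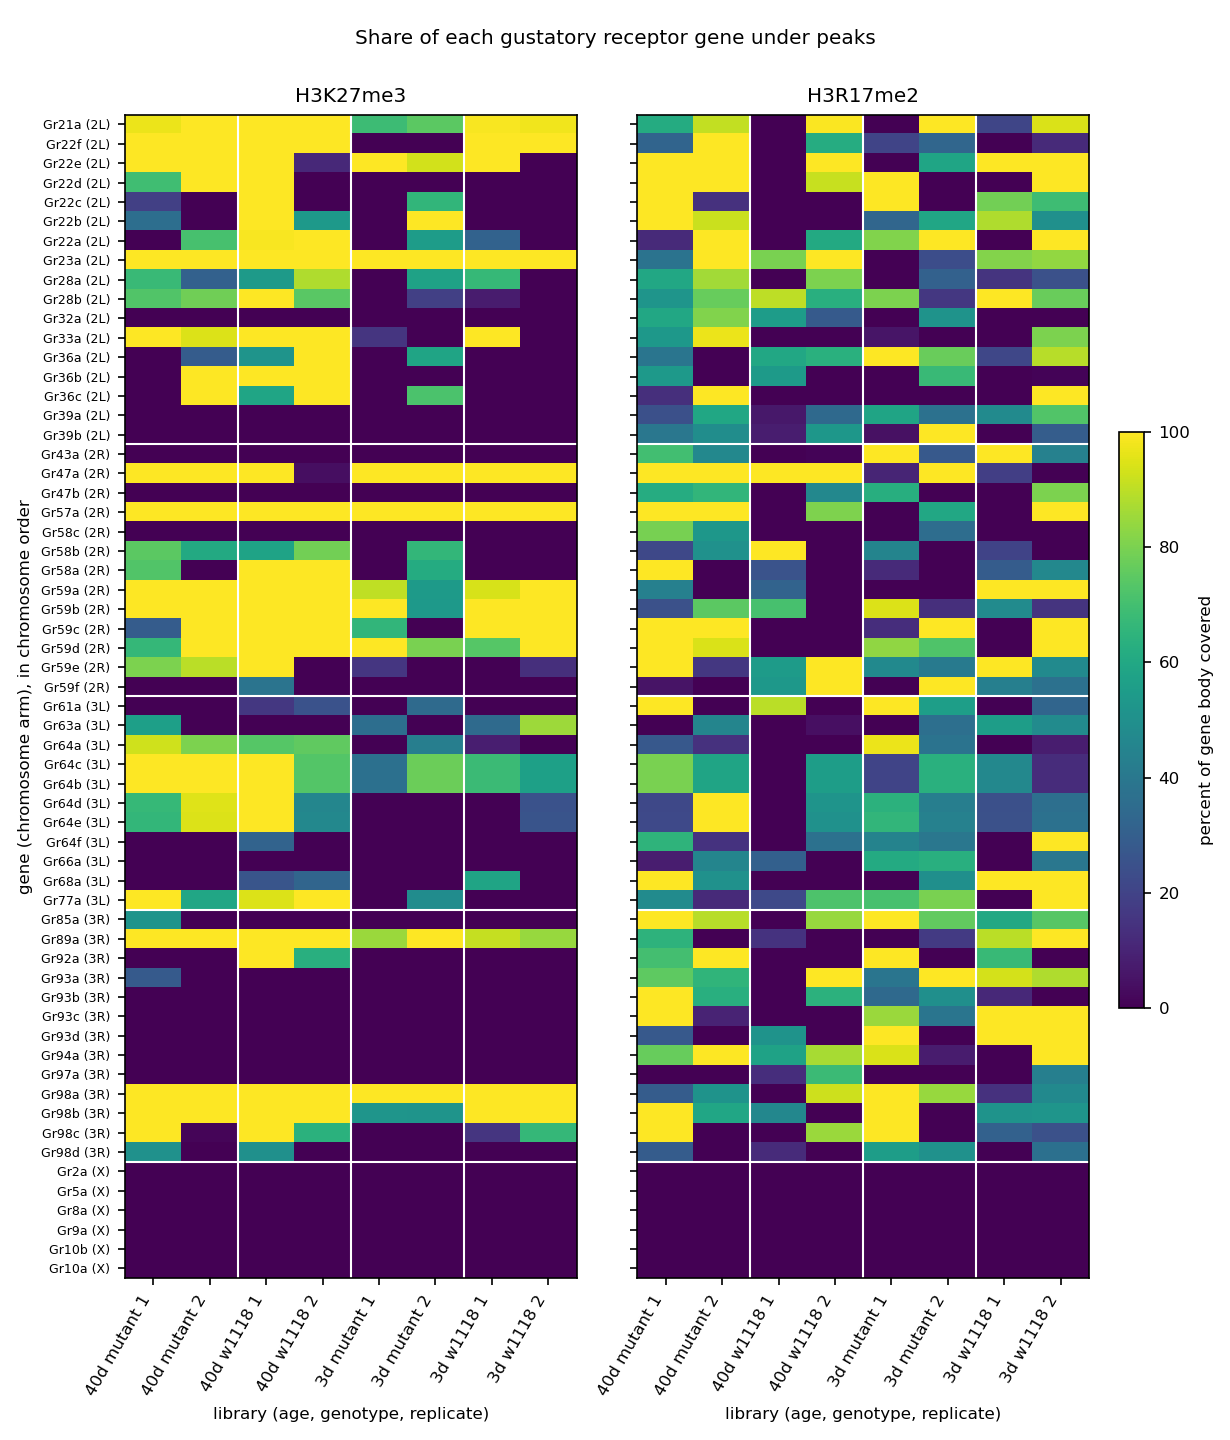
Covered share (colour, 0 to 100% of the gene body) of each Gr gene (one per line) in each of the 16 libraries, grouped by mark, age and genotype. Gr23a, Gr57a and Gr98a are at 100% in all 8 H3K27me3 libraries, 18 genes are at 0 in all 8, and in the H3R17me2 columns replicates of a condition differ by 50 points or more at 16 to 23 genes.

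All 6 X-linked Gr genes (Gr2a, Gr5a, Gr8a, Gr9a, Gr10a and Gr10b) were at 0 in all 16 lists. Gr5a encodes a receptor for trehalose and other sugars and Gr8a takes part in sensing the plant toxin canavanine. The same was true of 71.5% of the 2196 X-linked protein-coding genes and of 3.03% of the 11749 autosomal ones, so the values of these 6 genes do not separate them from the rest of their chromosome. Among the 54 autosomal Gr genes 12 (22.2%) lacked H3K27me3 in all libraries, against 54.4% of all autosomal genes.

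The strength of the peaks differed between the marks. In each H3K27me3 library 13 to 23 peaks touched a Gr gene and 2 to 12 of them had a q-value under 0.05. In each H3R17me2 library 21 to 42 peaks did, and none had such a q-value, the largest −log10 q being 0.422. Fold enrichment over input at Gr genes ran between 1.24 and 4.28 for H3K27me3 and between 1.21 and 1.91 for H3R17me2. A peak of H3K27me3 with q under 0.05 lay on 24 Gr genes in at least 1 library, on Gr21a, Gr23a, Gr57a and Gr89a in at least 4, and on Gr89a alone in all 8. The H3K27me3 peaks on Gr genes had a median length of 2889 to 10634 bp per library, against 2252 to 3174 bp for all H3K27me3 peaks. A longer peak is more likely to touch a gene, and peaks touching other genes were not compared. Of the H3K27me3 peaks, 3 to 8 per library touched more than 1 Gr gene.

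The sugar receptor genes comprise Gr5a, Gr43a, Gr61a and Gr64a to Gr64f. Their summarised H3K27me3 share was 47.3% and 52.2% in the 40-day mutant, 58.0% and 37.7% in 40-day w1118, 8.2% and 25.8% in the 3-day mutant and 16.1% and 18.3% in 3-day w1118. Gr5a and Gr43a, whose product senses fructose in taste neurons and in the brain, had no H3K27me3 peak in any library. Gr61a, a receptor gene for glucose, was covered in 3 libraries only, at 16.3% and 25.1% in 40-day w1118 and 34.6% in 1 replicate of the 3-day mutant. Gr64f, which encodes a partner needed by several sugar receptors, was covered in 1 library only, at 31.9% in replicate 1 of 40-day w1118. Gr64a to Gr64e carried the rest of the H3K27me3 signal of this list and are described with age below.

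The genes used widely in bitter neurons are Gr32a, Gr33a, Gr39a, Gr66a and Gr89a. Gr32a, Gr39a and Gr66a had no H3K27me3 peak in any library, while Gr89a was covered at 84.4% or more in all 8. Gr33a, which is also needed for the inhibition of male-male courtship, took a middle place. Its H3K27me3 share was 100% and 94.6% in the 40-day mutant, 100% and 100% in 40-day w1118, 15.3% and 0% in the 3-day mutant and 100% and 0% in 3-day w1118. The list therefore held genes at or near both ends of the H3K27me3 range of the family.

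The 2 subunits of the carbon dioxide receptor of the antenna, encoded by Gr21a and Gr63a, differed. Gr21a was covered by H3K27me3 at 97.1% and 100% in the 40-day mutant, 100% and 100% in 40-day w1118, 68.4% and 74.9% in the 3-day mutant and 99.0% and 97.7% in 3-day w1118. Gr63a was covered at 56.3% and 0% in the 40-day mutant, 0% and 0% in 40-day w1118, 36.3% and 0% in the 3-day mutant and 34.6% and 85.2% in 3-day w1118. The peak on Gr63a in replicate 2 of 3-day w1118 had a fold enrichment of 4.28 and a −log10 q of 43.2, whereas the next highest −log10 q on a Gr gene was 4.71, on Gr89a. Of 18 genes that work beside Gr receptors in taste neurons, 11 had no H3K27me3 peak in any library, beside 8234 of all 13945 genes. Among the 11 were the ionotropic co-receptor gene Ir25a, the G protein gene Galphaq and the X-linked genes ppk23, ppk28, norpA and Gbeta13F. Poxn, which specifies taste bristles, was completely covered in all 8 libraries. The mean H3K27me3 share of this list ran from 14.7% to 24.9%, beside 15.2% to 25.1% for all genes and 20.1% to 55.9% for Gr genes. In the age comparison 2 of its 18 genes were higher at 40 days without overlap of the groups and 0 were lower, beside 5.46% and 0.129% of all genes.

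The H3K27me3 means of the clusters were spread widely. The mean over 8 libraries was 65.5% for the 6 genes of Gr59, 61.0% for the 4 of Gr98, 48.0% for the 6 of Gr22, 47.9% for the 6 of Gr64, 36.2% for the 3 of Gr36, 28.0% for the 3 of Gr58 and 0.9% for the 4 of Gr93. In Gr93, which includes the caffeine receptor gene Gr93a, 3 of 4 genes had no H3K27me3 peak in any library and Gr93a had one in 1 library. The 28 Gr genes outside these clusters averaged 27%. The H3R17me2 means were closer together, between 25.8% for Gr58 and 53.1% for Gr22, with 53.0% for Gr93.

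Each gene's 8 H3K27me3 libraries were then set against its 8 H3R17me2 libraries by an exact two-sided permutation test, with Benjamini-Hochberg adjustment over all 13945 genes. The p-values here and below measure only the spread between these libraries. H3K27me3 covered more at 5 Gr genes (8.33%), with 8.7% of all genes called in that direction: Gr23a, Gr59a, Gr59b, Gr89a and Gr98a. H3R17me2 covered more at 10 Gr genes (16.7%), with 21.7% of all genes called: Gr39a, Gr39b, Gr43a, Gr64f, Gr66a, Gr85a, Gr93a, Gr93b, Gr93c and Gr94a. Both shares of Gr genes were near or below those of all genes.

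Gr89a and Gr39a, both bitter receptor genes, were called in opposite directions. Gr89a averaged 95.1% ± 7.1 for H3K27me3 and 35.7% ± 42.3 for H3R17me2 (SD, n = 8 each, exact permutation test, adjusted p = 0.0186). Gr39a averaged 0% for H3K27me3, with no peak in any library, and 42.5% ± 21.5 for H3R17me2, with a peak in all 8 (SD, n = 8 each, exact permutation test, adjusted p = 0.0017). Gr39a overlaps Mondo, a gene of another family, and 12 Gr genes overlap such a gene. Without them H3R17me2 covered more at 6 Gr genes in place of 10. With peaks of q under 0.05 alone, H3K27me3 covered more at 2 Gr genes and H3R17me2 at 0, and in windows of 500 bp on either side of the gene start the counts were 0 and 2. H3K27me3 covered more at 9 genes when replicate 1 of the 40-day mutant H3R17me2 libraries was left out.

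The sequence before Gr39a is shown because the H3R17me2 lists reached it while the H3K27me3 lists did not, and that before Gr66a because it lay free of H3K27me3 as well. In these and the later sequences, read from the RefSeq copy of the dm6 assembly and printed 5′ to 3′ on the strand of the gene, capitals mark GCCAT, the core letters bound by the Polycomb recruiter Pho, found on either strand. GAGAG, the element of GAGA factor, was searched on both strands as well and is in none of the printed sequences. GCCAT was found in the 250 bp before 27 of 60 Gr genes (45%) and before 35.7% of all 13945 genes, and GAGAG before 10 Gr genes (16.7%) and 25.7% of all genes. The letters overlap no other motif searched, and a match is only a match of letters. Each window lies before the 5′ end of the annotated gene body. Gr28b has 5 annotated transcripts and Gr39a has 4, and starts inside the gene bodies were not examined.

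The Gr39a window (chr2L:21290484-21290733, plus strand) holds neither motif, and H3R17me2 covered it fully in 3 of 4 libraries of 40-day flies and in 2 of 4 of 3-day flies.
Gr39a: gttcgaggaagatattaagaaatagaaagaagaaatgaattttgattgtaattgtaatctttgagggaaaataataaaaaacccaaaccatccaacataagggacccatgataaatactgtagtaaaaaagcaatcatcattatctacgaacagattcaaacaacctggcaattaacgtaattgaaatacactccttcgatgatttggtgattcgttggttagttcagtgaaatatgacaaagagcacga
The Gr66a window (chr3L:8306981-8307230, minus strand) holds GCCAT on the opposite strand, read here as ATGGC, and overlaps an exon of BI-1. H3R17me2 touched it in 1 of 4 libraries of 40-day flies, over 6.8% of its length, and in none of 3-day flies.
Gr66a: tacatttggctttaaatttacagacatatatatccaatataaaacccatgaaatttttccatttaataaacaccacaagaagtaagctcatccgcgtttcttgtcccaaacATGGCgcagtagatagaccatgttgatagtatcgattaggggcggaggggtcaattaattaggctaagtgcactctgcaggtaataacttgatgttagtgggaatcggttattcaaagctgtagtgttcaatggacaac

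In each library of 40-day flies the mean H3K27me3 share of Gr genes lay above that of each library of 3-day flies. The mean over the 60 genes was 46.4% ± 6.30 in the 4 libraries of 40-day flies and 25.7% ± 4.16 in the 4 of 3-day flies (SD, n = 4 each), a difference of 20.7 points beside 7.005 points over all genes. Leaving out 1 library at a time gave 17.6 to 21.8 points. The difference was 18.1 points over Or genes and 19.2 points over Ir genes, with 7 of 59 and 5 of 60 genes free of overlap, so the other chemoreceptor families moved by a like amount. The H3K27me3 lists held 4718 to 6188 peaks at 40 days and 3575 to 6295 at 3 days, and those with q under 0.05 numbered 623 to 1967 and 1056 to 1365. Of the marker lists, 5 testis genes were 31.6 points higher at 40 days (1 of 5 without overlap), 3 fat body genes 15.6, 5 photoreceptor genes 5.67, 4 glial genes 4.65 and 5 neuronal genes 2.03 points, and the part of cell composition in the Gr values was not tested. At 5 Gr genes (8.33%) each library of 40-day flies lay above each library of 3-day flies, and the same order was found at 5.46% of all genes. The 5 genes were Gr28b, Gr64a, Gr64d, Gr64e and Gr77a, and Gr64d and Gr64e are nearly the same span. No Gr gene lay in the opposite order, which 0.129% of all genes did. With 4 libraries against 4 the smallest two-sided exact permutation p is 0.0286, and no gene passed the adjustment over all genes (smallest adjusted p = 0.511), although 762 genes were higher and 18 lower at an unadjusted p under 0.05.

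**Figure D3:**
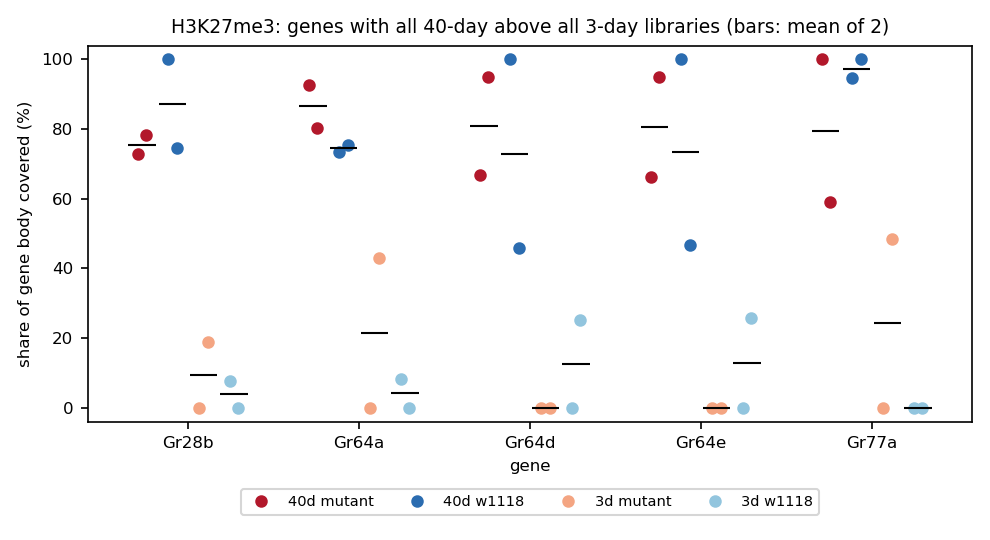
H3K27me3 covered share (percent of the gene body) in each library of Gr28b, Gr64a, Gr64d, Gr64e and Gr77a, with libraries of 40-day flies left of those of 3-day flies and the genotypes apart (points are libraries, bars the mean of 2). For Gr28b the 4 libraries of 40-day flies lie between 72.7% and 100% and the 4 of 3-day flies between 0% and 18.8%.

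Gr28b, whose isoforms serve in sensing warmth, light and bitter substances, has the longest body of the family. Its H3K27me3 share was 72.7% and 78.4% in the 40-day mutant, 100% and 74.6% in 40-day w1118, 0% and 18.8% in the 3-day mutant and 7.53% and 0% in 3-day w1118. The groups of 40 and 3 days did not overlap, with means of 81.4% ± 12.6 and 6.59% ± 8.90 (SD, n = 4 each, exact permutation p = 0.0286, adjusted p = 0.511). The unadjusted p is the smallest possible and follows from the lack of overlap by which the gene was picked. Gr77a gave 100% and 59.0% in the 40-day mutant, 94.6% and 100% in 40-day w1118, 0% and 48.4% in the 3-day mutant and 0% in both libraries of 3-day w1118. Its gap between the ages was narrow in the mutant, where 59.0% at 40 days faced 48.4% at 3 days, and it overlaps CG13252, a gene of another family.

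The Gr64 cluster spans 10807 bp at chr3L:4026769-4037575 on the plus strand and encodes sugar receptors, among them that for maltose and sucrose (Gr64a) and that for glycerol (Gr64e). H3K27me3 peaks covered 70.3% and 77.7% of the cluster in the 40-day mutant, 84.3% and 51.5% in 40-day w1118, 11.7% and 31.9% in the 3-day mutant and 23.1% and 26.6% in 3-day w1118. In 40-day flies the peaks began 134 to 485 bp inside Gr64a, and in 3-day flies 1046 to 2574 bp from its start. The middle of the cluster, Gr64b and Gr64c, was covered in all libraries, at 100% and 100% in the 40-day mutant, 100% and 73.2% in 40-day w1118, 36.9% and 77.4% in the 3-day mutant and 68.2% and 56.9% in 3-day w1118. The age groups overlapped there, and they did not overlap at the flanking genes Gr64a, Gr64d and Gr64e.

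Gr64a was covered at 92.7% and 80.3% in the 40-day mutant, 73.5% and 75.5% in 40-day w1118, 0% and 42.9% in the 3-day mutant and 8.35% and 0% in 3-day w1118. Gr64d was covered at 66.9% and 95.0% in the 40-day mutant, 100% and 45.7% in 40-day w1118, 0% in both libraries of the 3-day mutant and 0% and 25.3% in 3-day w1118. Gr64e was covered at 66.1% and 94.9% in the 40-day mutant, 100% and 46.7% in 40-day w1118, 0% in both libraries of the 3-day mutant and 0% and 25.8% in 3-day w1118. In all 3 genes each library of 40-day flies lay above each of 3-day flies. The mean of the cluster was 47.3 points higher at 40 days, beside 50.8 points for Gr36, 34.7 for Gr58, 33.9 for Gr22, 23.8 for Gr98, 19.3 for Gr59, 1.77 for Gr93 and 10.0 for the Gr genes outside clusters. One of these peaks, in replicate 2 of the 40-day mutant, had a q-value under 0.05 (−log10 q 2.59, fold enrichment 1.59).

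The 250 bp before Gr64a, Gr28b and Gr77a are shown because the H3K27me3 peaks of 40-day flies reached them to different degrees. Those before Gr64d and Gr64e, also in the age call, are not shown. Before Gr64a (chr3L:4026519-4026768, plus strand) no H3K27me3 peak reached the window in any of the 8 libraries, and neither motif was found.
Gr64a: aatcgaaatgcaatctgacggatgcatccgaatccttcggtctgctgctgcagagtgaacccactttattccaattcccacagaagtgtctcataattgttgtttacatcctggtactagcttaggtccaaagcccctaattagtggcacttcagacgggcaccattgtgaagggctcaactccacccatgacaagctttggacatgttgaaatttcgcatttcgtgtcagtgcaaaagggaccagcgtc
Before Gr28b (chr2L:7462248-7462497, minus strand) peaks touched the window in 2 of 4 libraries of 40-day flies and in 0 of 4 of 3-day flies.
Gr28b: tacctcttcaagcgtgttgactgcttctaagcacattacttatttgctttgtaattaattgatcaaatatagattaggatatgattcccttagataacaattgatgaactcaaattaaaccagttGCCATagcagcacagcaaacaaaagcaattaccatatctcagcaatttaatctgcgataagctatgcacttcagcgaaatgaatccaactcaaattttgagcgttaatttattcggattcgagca
Before Gr77a (chr3L:20739431-20739680, minus strand) the window was fully covered in 3 of 4 libraries of 40-day flies, and in 3-day flies it was touched in 1 of 4, over 23.6%.
Gr77a: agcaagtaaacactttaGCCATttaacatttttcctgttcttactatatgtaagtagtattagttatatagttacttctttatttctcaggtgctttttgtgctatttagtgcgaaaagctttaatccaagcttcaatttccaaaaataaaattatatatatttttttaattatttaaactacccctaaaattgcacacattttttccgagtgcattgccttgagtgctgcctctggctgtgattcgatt

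The age call rested on weak peaks and on the region chosen. With peaks of q under 0.05 alone 0 Gr genes kept the order and the mean difference was 4.59 points; with equal numbers of peaks per list 2 genes had it, Gr28b and Gr33a; with 1000 bp upstream added 9 had it, the same 5 among them; and around the gene start 3 had it. The count was 9 without replicate 2 of the 3-day mutant or without replicate 2 of 40-day w1118, and 8 without replicate 1 of the 40-day mutant.

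The ages were also compared within each genotype, with 2 libraries against 2, where the smallest exact permutation p is 0.3333 and only the order of the libraries is given. In the mutant, H3K27me3 at 15 Gr genes (25%) was higher in both libraries of 40-day flies than in both of 3-day flies, an order found at 12.6% of all genes, and 0 were lower, beside 0.588% of all genes. In w1118, 18 Gr genes (30%) were higher, beside 11.8% of all genes, and 1 gene, Gr63a, was lower, beside 1.56%. Of the higher genes, 15 in the mutant and 13 in w1118 differed by 25 points or more, beside 8.68% and 8.31% of all genes. The mean difference was 18.6 points in the mutant and 22.8 points in w1118, beside 7.43 and 6.58 points over all genes. It was 22.6 points over Or genes and 23.9 over Ir genes in the mutant, and 13.5 and 14.6 points in w1118. Both genotypes showed the higher order at 8 genes, Gr21a, Gr28b, Gr64a to Gr64e and Gr77a, which is the case for 6.76% of all genes. These are not 8 separate spans, since Gr64b shares its span with Gr64c and Gr64d nearly with Gr64e. At Gr21a the difference in w1118 was 1.66 points only. With peaks of q under 0.05 alone the counts of higher genes were 2 in the mutant and 1 in w1118, and the mean difference in w1118 turned to -4.76 points.

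Gr22f and Gr36b had the extreme values of these comparisons. Gr22f was fully covered by H3K27me3 in both libraries of the 40-day mutant, of 40-day w1118 and of 3-day w1118, and at 0 in both libraries of the 3-day mutant. Gr36b was covered at 0% and 100% in the 40-day mutant, at 100% in both libraries of 40-day w1118 and at 0% in the other 4 libraries. Gr58a was covered at 72.8% and 0% in the 40-day mutant, at 100% in both of 40-day w1118, at 0% and 61.7% in the 3-day mutant and at 0% in both of 3-day w1118. At Gr36b replicate 1 of the 40-day mutant lay with the 3-day libraries, and at Gr58a 1 mutant library of each age lay with the other age.

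With both ages pooled, the H3K27me3 shares of mutant and w1118 libraries overlapped at every Gr gene or were 0 in all. The mean over Gr genes was 33.9% in the 4 mutant libraries and 38.3% in the 4 w1118 libraries, a difference of -4.42 points that ran from -8.79 to 1.44 when 1 library was left out. No Gr gene was higher in all 4 mutant libraries, beside 0.1% of all genes, and none was lower in all 4, beside 0.0717%. Over all genes 14 were higher and 10 lower at an unadjusted exact permutation p under 0.05, and none passed the adjustment.

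Within each age the order differed at single genes. At 3 days 0 Gr genes were higher in both mutant libraries, beside 2.01% of all genes, and 6 (10%) were lower, beside 3.08%: Gr21a, Gr22f, Gr59a, Gr59c, Gr98b and Gr98c. At 40 days 1 gene, Gr64a, was higher, beside 4.34%, and 7 (11.7%) were lower, beside 2.95%: Gr22a, Gr22b, Gr36a, Gr58a, Gr61a, Gr68a and Gr92a. Gr59c, active in bitter neurons, was covered at 65.6% and 0% in the 3-day mutant and at 100% in both libraries of 3-day w1118. Gr92a was at 0% in both libraries of the 40-day mutant and at 100% and 63.1% in 40-day w1118. Gr22a was at 0% and 71.0% in the 40-day mutant and at 99.0% and 100% in 40-day w1118. No Gr gene was lower in the mutant at both ages, beside 0.229% of all genes. At 3 days the count of higher genes was 14 without replicate 1 of the 3-day mutant, and 1 or 2 without each of the other 3 libraries, with 8 or 9 lower genes in each case. At 40 days the count of lower genes was 0 with peaks of q under 0.05, and it was 14 without replicate 2 of 40-day w1118, 13 without replicate 2 of the 40-day mutant and 11 without its replicate 1. The count of higher genes at 40 days was 9 without replicate 1 of 40-day w1118, with 9 lower there, 5 without replicate 2 of the 40-day mutant and 2 without replicate 2 of 40-day w1118.

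H3R17me2 at Gr genes showed no common order with age. The mean was 39.8% ± 16 in the 4 libraries of 40-day flies and 40.8% ± 7.77 in the 4 of 3-day flies (SD, n = 4 each), a difference of -0.953 points that turned sign when a library was left out (-5.85 to 6.05). No Gr gene was higher in all 4 libraries of 40-day flies, beside 0.459% of all genes, and none was lower, beside 1.13%. Over all genes 64 were higher and 158 lower at an unadjusted exact permutation p under 0.05, and none passed the adjustment.

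The ages were then compared within each genotype. In the mutant 12 Gr genes (20%) were higher at 40 than at 3 days, beside 12.3% of all genes, and 6 (10%) lower, beside 8.3%. In w1118 3 (5%) were higher, beside 5.1%, and 12 (20%) lower, beside 15.5%. The mean difference was 12.1 points in the mutant and -14.0 points in w1118, beside 1.64 and -7.76 points over all genes, and the difference between these was not tested. It was 9.58 points over Or genes and 6.16 over Ir genes in the mutant, and -16.1 and -20.0 points in w1118. Gr32a, a bitter receptor gene that also serves in rejecting male pheromone, was the only Gr gene in the higher order in both genotypes, an order found at 0.789% of all genes. Its H3R17me2 share was 60.1% and 81.2% in the 40-day mutant, 55.4% and 28.3% in 40-day w1118, 0% and 51.5% in the 3-day mutant and 0% in both of 3-day w1118. Gr47a, which takes part in sensing the bitter alkaloid strychnine, was at 100% in all 4 libraries of 40-day flies, at 10.2% and 100% in the 3-day mutant and at 18.7% and 0% in 3-day w1118. Gr68a, expressed in taste neurons of the male foreleg and used in courtship, was at 100% and 50.7% in the 40-day mutant, 0% in both of 40-day w1118, 0% and 49.9% in the 3-day mutant and 100% in both of 3-day w1118. Gr93c was at 100% and 9.82% in the 40-day mutant, 0% in both of 40-day w1118, 85.1% and 39.0% in the 3-day mutant and 100% in both of 3-day w1118. At both genes the w1118 libraries of the ages were wholly apart, and the mutant libraries were not at Gr93c. Gr32a overlaps CG6230, Gr47a overlaps SLO2 and Gr68a overlaps loaf, genes of other families, so their values need not belong to the receptor gene. In the mutant, Gr33a was at 53.2% and 96.9% at 40 days and at 5.53% and 0% at 3 days, while Gr98a was at 29.2% and 51.3% at 40 days and at 100% and 84.4% at 3 days. The counts in w1118 depended on single libraries, with 27 genes lower without replicate 1 of 3-day w1118, 24 without replicate 2 of 40-day w1118, and 18 higher without its replicate 1.

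Between the genotypes H3R17me2 was on average higher in the mutant at Gr genes over both ages, but not at 3 days. The mean difference over both ages was 11.6 points, beside 6.61 points over all genes, and ran from 6.39 to 17.1 when a library was left out. It was 2.31 points over Or genes and 5.80 over Ir genes. For Gr genes the difference was 24.6 points at 40 days and -1.39 points at 3 days. Only 1 Gr gene, Gr64a, was higher in all 4 mutant libraries than in all 4 of w1118, beside 1.32% of all genes, and 0 were lower, beside 0.237%. Gr64a was covered at 27.6% and 14.2% in the 40-day mutant, 0% in both libraries of 40-day w1118, 97.1% and 38.2% in the 3-day mutant and 0% and 7.91% in 3-day w1118. Its means were 44.3% ± 36.5 in the mutant and 1.98% ± 3.96 in w1118 (SD, n = 4 each, exact permutation p = 0.0286, adjusted p = 1). The order was found at 184 genes of the genome in the higher and 33 in the lower direction. All had an unadjusted exact permutation p under 0.05, which 4 libraries against 4 without overlap give by construction. None passed the adjustment. The count of higher genes was 4 without replicate 1 or 2 of the 3-day mutant or replicate 2 of 40-day w1118, 3 without replicate 2 of 3-day w1118 and 2 without replicate 1 of the 40-day mutant.

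At 40 days H3R17me2 was higher in both mutant libraries than in both w1118 libraries at 20 Gr genes (33.3%), an order found at 18.9% of all genes, and lower at 3 genes (Gr36a, Gr59f and Gr97a), beside 3.76%. At 3 days 10 Gr genes (16.7%) were higher, beside 9.72%, and 9 (15%) lower, beside 9.32%. The mean difference was 24.6 points at 40 days and -1.39 points at 3 days, beside 11.3 and 1.91 points over all genes. Over Or and Ir genes it was 15.2 and 18.9 points at 40 days, and -10.5 and -7.29 points at 3 days. The mean over Gr genes in 40-day w1118 was 18.8% in replicate 1, the lowest H3R17me2 value of the 8 libraries, and 36.2% in replicate 2. That library also had the fewest peaks, 10627, and the lowest mean over all genes, 15.6%, and held no H3R17me2 peak on the Gr64 cluster nor on the stretch from Gr22a to Gr22e, and without it the mean difference at 40 days was 15.9 points. With peaks of q under 0.05 the count of 20 was 0, since no Gr gene has such a peak. It was 34 without replicate 2 of 40-day w1118.

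**Figure D4:**
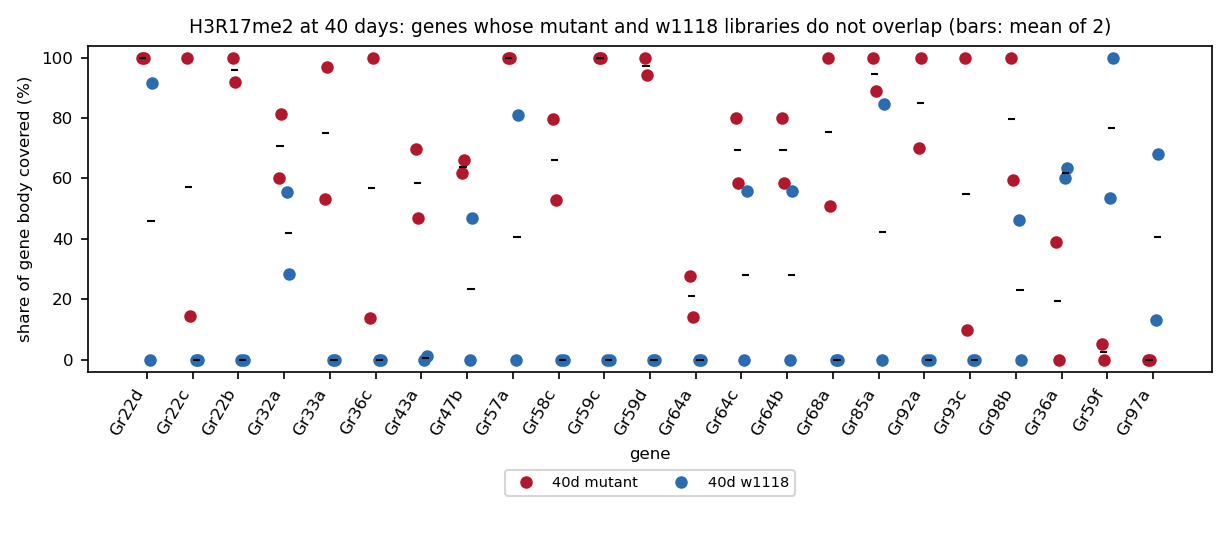
H3R17me2 covered share (percent of the gene body) at 40 days of the Gr genes whose mutant and w1118 libraries did not overlap, with the 2 mutant libraries left of the 2 w1118 libraries (points are libraries, bars the mean of 2). Gr59c is at 100% in both mutant libraries and at 0% in both w1118 libraries, and Gr36a, Gr59f and Gr97a run the other way.

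Gr59c and Gr59d had the largest differences at 40 days. Gr59c was covered by H3R17me2 at 100% in both libraries of the 40-day mutant and at 0% in both of 40-day w1118, while at 3 days it was at 13.0% and 100% in the mutant and at 0% and 100% in w1118. Gr59d was at 100% and 94.1% in the 40-day mutant and at 0% in both of 40-day w1118. The opposite order held at Gr59f, with 5.23% and 0% in the 40-day mutant and 53.4% and 100% in 40-day w1118, and at Gr36a, with 38.9% and 0% in the 40-day mutant and 60.0% and 63.4% in 40-day w1118. At 3 days Gr61a was higher in the mutant, with 100% and 55.9% in the mutant and 0% and 32.4% in w1118, and Gr59a was lower, with 0% in both mutant libraries and 100% in both w1118 libraries. Gr89a was at 0% and 16.8% in the 3-day mutant and at 89.7% and 100% in 3-day w1118. Gr22e was at 0% and 58.8% in the 3-day mutant against 100% in both libraries of 3-day w1118, and at 100% in both libraries of the 40-day mutant.

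The Gr22 cluster was covered by H3R17me2 as a run in some libraries and in patches in others. The mean H3R17me2 share of its 6 genes was 74.0% and 84.4% in the 40-day mutant, 0.0% and 52.4% in 40-day w1118, 55.7% and 41.8% in the 3-day mutant and 44.5% and 71.8% in 3-day w1118. The stretch of 10856 bp from Gr22a to Gr22e (chr2L:1784062-1794917) was covered at 87.9% and 87.4% in the 40-day mutant, in each case by 2 peaks, the longer of 9407 and 8975 bp. In replicate 1 of the 40-day mutant Gr22a was at 12.0% beside 100% at each of Gr22b to Gr22e, and in replicate 1 of 3-day w1118 Gr22b and Gr22c were at 88.0% and 78.8% between 0% at Gr22a and 0% at Gr22d. Several neighbouring genes could lie under the same peak, so they are not separate measurements.

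Both marks on one gene were counted by pairing the lists of the 2 marks of the same age, genotype and replicate number, which need not come from the same chromatin. Both covered 50% or more of the body at 17 and 21 Gr genes in the 40-day mutant, 8 and 13 in 40-day w1118, 4 and 11 in the 3-day mutant and 6 and 8 in 3-day w1118. The mean was 11 ± 5.76 Gr genes (SD, n = 8 pairs), or 18.3%, beside 10.1% of all genes. The 40-day mutant pairs had the highest counts, and the all-gene share was highest there as well, at 12.8% and 16.6%. With peaks of q under 0.05 alone there was 0 such gene in each pair. Whether the marks lie in the same cells was not tested.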

How the data were processed

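Peak lists of 8 H3K27me3 and 8 H3R17me2 libraries were analysed, 2 per age and genotype. According to the submitters' processing notes the tools were Trim Galore 0.6.0, Bowtie2 2.5.1, SAMtools 1.19 and MACS2 2.2.7.1. The authors removed duplicate reads, called broad peaks against input in each library separately, and deposited a fold enrichment (ratio over input), a −log10 p and a −log10 q for each peak. The methods state that peaks were called at p 0.01, with 500 bp as the shortest length kept. The deposited lists hold no peak shorter than 500 bp, and the −log10 p values correspond to p-values of up to 0.0997, above 0.01 at 54.3% to 96.5% of the peaks of a library. Which input went with which library is not given in the sources used here. The lists hold no counts, so the depth is unknown and no interval for counting error is given.

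Peaks of a library were merged and the covered share was computed per gene over Ensembl BDGP6 release 115 gene bodies (dm6), with genome sequence from RefSeq, in Python 3.11.15 with NumPy 2.4.6, pandas 2.3.3 and matplotlib 3.10.9. Groups came from the sample labels. Ages (4 against 4 libraries), genotypes (4 against 4) and marks (8 against 8) were compared per gene with exact two-sided permutation tests, adjusted by Benjamini-Hochberg over all 13945 genes, and comparisons of 2 against 2 libraries by order alone. The code was tested on simulated data. The listed peak threshold, the number of peaks, the region, the gene span, the libraries, the members, the size of a difference, the pairing by number and the share that counts as covered by both marks were varied. The 60 Gr genes, the lists (sugar, bitter, carbon dioxide, Gr28b, taste neuron partners, odorant and ionotropic receptors, head markers) and the tests were chosen with earlier results of these data known. Values per library are given for the genes of the functional Gr lists and, per comparison and direction, for up to 2 Gr genes with the largest mean difference among those whose groups did not overlap; other genes are named in counts or were named after their values were seen.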

Additional observations from a re-analysis of the deposited data

Results flagged for a closer look

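In 72 groups of 4 or 8 libraries, 7 held a library far from the others, judged by its gap to the next value over the range. A chance rate of about 1 in 20 cannot be applied here, because covered shares are bounded and often tied at 0. The groups of 8 also mix ages and genotypes, and Gr genes in a cluster share peaks. Whether 7 is more than chance gives was therefore not tested. The mean H3K27me3 share of Gr genes at 40 days was 55.9% in replicate 1 of w1118, against 43.1% to 43.5% in the other 3 libraries. Over the 8 H3K27me3 libraries, Gr47a was at 3.79% in replicate 2 of 40-day w1118 and at 99.6% to 100% elsewhere, and Gr59a at 54.5% in replicate 2 of the 3-day mutant and at 90.6% to 100% elsewhere. Gr59f (38.4%) and Gr64f (31.9%) were covered in replicate 1 of 40-day w1118 and at 0 in the other 7. Over the 8 H3R17me2 libraries, Gr58a was at 100% in replicate 1 of the 40-day mutant and at 0% to 46.7% elsewhere, and Gr64a at 97.1% in replicate 1 of the 3-day mutant and at 0% to 38.2% elsewhere.

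At 3 Gr genes H3R17me2 changed in opposite directions, and the difference was not tested in any of them. Between 40 and 3 days Gr22b changed by 49.96 points in the mutant and -69.0 points in w1118, which are 119 points apart, and Gr68a by 50.4 and -100 points, which are 150 apart. Between mutant and w1118 Gr68a changed by 75.3 points at 40 days and -75.0 points at 3 days, again 150 apart, and Gr93c by 54.9 and -38.0 points, 92.9 apart. The first pattern is found at 2.45% of all genes and the second at 2.24%, against 2 of 60 Gr genes each.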

How the results depend on the processing

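Of the main values under alternatives that keep all libraries, 136 stayed within the spread or within 1.5 times of the count, 36 moved and 1 reversed. With peaks of q under 0.05 the mean share of Gr genes was 10.7% for H3K27me3 and 0% for H3R17me2, H3K27me3 covered more at 2 genes, H3R17me2 at 0, and 0 genes were covered by both. The counts were then 0 for H3K27me3 with age, 2 in the mutant and 1 in w1118, 3 for lower in the mutant at 3 days and 0 at 40 days, and 0 for each H3R17me2 comparison. The mean differences were 4.59 points with age, -4.76 with age in w1118 (reversed) and 0 for H3R17me2 between genotypes, also at 40 days. With an equal number of peaks, H3R17me2 covered more at 3 genes, 2 genes were higher with age for H3K27me3 and 8 in the mutant, 3 were lower in the mutant at 40 days, and the mean difference with age in w1118 was 16.8 points. With 1000 bp upstream, H3K27me3 covered more at 8 genes and 9 were higher with age. In windows of 500 bp on either side of the gene start H3K27me3 covered more at 0 genes and H3R17me2 at 2, 3 were higher with age for H3K27me3 and 4 lower in the mutant at 40 days, and for H3R17me2 0 were higher in the mutant, 12 at 40 days, and 7 were higher with age in the mutant. Counting any overlap, 19.1 Gr genes per pair had both marks, and at 90% of the body 4.13. RefSeq spans, leaving out the X-linked genes and a size of 25 points gave no other moved value among these. Causes were not tested, beyond the fewer peaks that the stricter settings keep by construction.

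Leaving out 1 library at a time gave a mean share of 33.3% to 38.4% for H3K27me3 and 38.3% to 43.4% for H3R17me2, 4 to 9 genes with more H3K27me3, 9 to 12 with more H3R17me2 and 9.57 to 12 with both. H3K27me3 counts ran from 5 to 9 with age, 18 to 22 in the mutant, 19 to 25 in w1118, 8 to 9 lower in the mutant at 3 days and 9 to 14 at 40 days. H3R17me2 counts ran from 1 to 4 between genotypes, 23 to 34 at 40 days, 20 to 23 higher with age in the mutant and 14 to 27 lower in w1118. Mean differences were 17.6 to 21.8 (H3K27me3, age), 14.1 to 23.1 (mutant), 16.6 to 29.0 (w1118), 6.39 to 17.1 (H3R17me2, genotype) and 15.9 to 33.3 points (at 40 days). With 2 libraries against 1, more genes are without overlap by construction.

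The gene-level deviations of libraries with the same replicate number correlated by -0.168 to 0.0724 for H3K27me3 and -0.0100 to 0.0608 for H3R17me2, below the value of 0.1 required to treat the numbers as pairs, while the H3R17me2 mean over all genes was higher in replicate 2 in all 4 conditions, by 8.75 to 16.3 points. With the replicate number as a block, 8 Gr genes were higher with age for H3K27me3 and 5 higher in the mutant for H3R17me2, with 27 in place of 20 at 40 days. Alternatives chosen after seeing the data were crossed numbers for H3K27me3 at 3 days, which gave 1 higher gene in place of 0, counting the shared Gr64 spans once, and leaving out Gr genes that overlap another family, which left 6 genes with more H3R17me2.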
